A study of Mus musculus with 16 samples.

Results

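Complex I, the NADH dehydrogenase of the mitochondrial inner membrane, was followed here at the level of mRNA in exosomes and in their mast cells. Members were the probe sets with a single annotated symbol that opens with Nduf, followed by a letter for the subunit family (a, b, c, s, v, af or ab) and a number. 88 probe sets of 44 genes met this rule, out of 18193 genes with a probe set of their own, and 22 of the 44 genes had 1 probe set. Where a gene had several, the probe set of highest mean log2 signal over all arrays stood for the gene, and the others are given where they differed. By role, the 44 genes were 6 core subunits, 28 accessory subunits, 8 assembly factors, and Ndufa4 with its paralogue Ndufa4l2. A further 10 probe sets that named an Nduf gene together with another gene were left out.

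RNA was measured on 16 Affymetrix mouse arrays, 4 in each group. The groups were exosomes released by MC/9 cells exposed to 125 µM H2O2 for 24 h (oxi exo), exosomes released without H2O2 (norm exo), MC/9 cells of the H2O2 condition (oxi cell) and MC/9 cells of the normal condition (norm cell). MC/9 is a mouse mast cell line, so all arrays came from 1 line, and growth medium, serum and Rat T-Stim were shared by all groups. The GEO descriptions say that the cells had received exosomes, whereas the study's methods use these arrays as the donor cells, and the sources used here do not settle it. They do not say either whether all 4 replicates of a group were separate cultures, so the p-values measure the spread between these samples, which may be technical.

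Complex I takes electrons from NADH in its N module, passes them along iron-sulfur clusters to ubiquinone in its Q module, and pumps protons through a membrane arm. The core subunits of the N and Q modules are encoded in the nucleus and those of the membrane arm in the mitochondrial genome. Accessory subunits surround this core, and assembly factors build the complex without staying in it. The complex is also a known source of superoxide, which is converted to H2O2.

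A signal is a linear MAS5.0 intensity, scaled by the authors so that the trimmed mean of each array is 100. Background was taken as the 95th percentile of 184 probe sets of tissue-restricted genes, such as olfactory receptors and crystallins, on each array. It averaged 242.5 in oxi exo, 214.2 in norm exo, 11.03 in oxi cell and 13.49 in norm cell. A gene is called above background in a group when it exceeded this value on all 4 arrays. Of 12 mast cell genes with a probe set, 2 were above background in oxi exo, 7 in norm exo, 11 in oxi cell and 10 in norm cell. Their summed signal was 1844 to 2697 in oxi exo, 4529 to 7311 in norm exo, 36660 to 43890 in oxi cell and 48910 to 53300 in norm cell. Of 6 T lymphocyte genes, 1, 1, 2 and 1 were above background in these groups, of 6 macrophage and neutrophil genes 0, 0, 2 and 1, and of 4 B lymphocyte and 2 erythroid genes none in any group. The summed signal of the T lymphocyte genes was 1108 to 1784 in oxi exo, 1094 to 1257 in norm exo, 45.36 to 121.7 in oxi cell and 34.91 to 103.7 in norm cell. That of the macrophage and neutrophil genes was 645 to 943.9, 699.9 to 936.3, 67.05 to 86.76 and 61.61 to 88.4 in the same order. The ratio of 3′ to 5′ probe sets of Gapdh was 1.48 to 2.33 in oxi exo, 1.43 to 1.77 in norm exo, 0.836 to 0.884 in oxi cell and 0.823 to 0.841 in norm cell, and that of beta-actin was 2.77 to 4.48, 3.81 to 6.55, 1.30 to 1.55 and 1.41 to 1.46 in the same groups, so that between the exosome groups the ratios of the 2 genes differed in direction. The part of these array differences in the results below was not tested.

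Promoters are shown for 4 genes of the cell comparison below, the gene of largest rise (Ndufa4), 2 others among the largest rises (Ndufb8 and Ndufb6) and the only gene called lower (Ndufa6). The sequences are RefSeq's on GRCm38.p6, 5′ to 3′ on the strand of the gene, from 250 bases before to 50 bases after the start of transcription. Capitals mark matches on either strand to the motifs searched, which were the NRF1 core GCATGC, the ETS (GABPA) site CCGGAAG, the ERRA half-site AAGGTCA, the YY1 core AAGATGG, the SP1 core GGGCGG and the CCAAT box CCAAT. The factors of the first 4 motifs are known regulators of nuclear genes of the mitochondrion.
Ndufa4, chr6:11907401-11907700, minus strand: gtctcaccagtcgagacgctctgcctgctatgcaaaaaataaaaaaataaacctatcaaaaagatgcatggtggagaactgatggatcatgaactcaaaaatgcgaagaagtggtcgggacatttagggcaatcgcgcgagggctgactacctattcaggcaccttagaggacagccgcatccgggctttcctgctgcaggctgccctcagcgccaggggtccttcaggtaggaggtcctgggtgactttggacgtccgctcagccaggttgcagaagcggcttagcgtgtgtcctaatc
Ndufb8, chr19:44555393-44555692, minus strand: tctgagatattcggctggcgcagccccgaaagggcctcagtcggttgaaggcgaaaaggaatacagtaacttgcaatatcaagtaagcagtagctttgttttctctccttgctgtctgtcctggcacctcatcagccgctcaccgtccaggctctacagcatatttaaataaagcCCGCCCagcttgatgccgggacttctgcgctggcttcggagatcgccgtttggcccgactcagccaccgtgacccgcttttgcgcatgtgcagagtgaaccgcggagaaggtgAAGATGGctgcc
Ndufb6, chr4:40279372-40279671, minus strand: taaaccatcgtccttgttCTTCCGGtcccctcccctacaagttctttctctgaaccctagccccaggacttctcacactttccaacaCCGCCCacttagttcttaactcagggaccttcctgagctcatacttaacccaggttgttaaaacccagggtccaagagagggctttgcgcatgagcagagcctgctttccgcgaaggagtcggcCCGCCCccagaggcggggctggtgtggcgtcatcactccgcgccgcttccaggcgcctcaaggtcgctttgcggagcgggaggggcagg
Ndufa6, chr15:82354242-82354541, minus strand: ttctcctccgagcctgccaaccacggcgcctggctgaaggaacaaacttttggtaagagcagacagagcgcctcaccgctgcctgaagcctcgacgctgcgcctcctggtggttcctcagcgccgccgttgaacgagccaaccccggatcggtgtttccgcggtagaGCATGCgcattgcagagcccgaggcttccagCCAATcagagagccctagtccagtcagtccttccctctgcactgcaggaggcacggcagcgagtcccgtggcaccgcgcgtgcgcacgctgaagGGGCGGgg
The promoter of Ndufa4 held no match to any of the 6 motifs. That of Ndufb8 held 1 SP1 and 1 YY1 match, that of Ndufb6 held 1 ETS and 2 SP1 matches, and that of Ndufa6 held 1 NRF1, 1 SP1 and 1 CCAAT match. The table gave 41 promoters for 39 of the 44 genes. The YY1 core was in 17.1% of these 41, against 6.34% of all 32851 promoters and 7.40% of 10010 promoters of genes above background in norm cell. The SP1 core was in 53.7%, 35.7% and 64.3% of the same 3 sets, the ETS site in 14.6%, 8.86% and 19.7%, the NRF1 core in 9.76%, 7.93% and 10.3%, the ERRA half-site in 7.32%, 4.72% and 2.95%, and the CCAAT box in 31.7%, 37.4% and 37.9%. These are shares of promoters that hold the letters, with no test.

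Complex I transcripts were readily measured in the cells and mostly lost in the background of the exosome arrays. In oxi cell and in norm cell 42 of the 44 genes were above background, as were 45.7% and 45.5% of all 45037 probe sets tested. Ndufb4, a membrane arm subunit, and Ndufa4l2, known as a hypoxia-induced gene, were below background on all 8 cell arrays. Each had 1 probe set among the members, and whether that probe set responds to its transcript was not tested. In oxi exo none of the 44 genes was above background on all 4 arrays (3.24% of all probe sets), and 28 were above it on no array. In norm exo 11 genes were above it on all 4 arrays (5.38% of all probe sets), namely Ndufa1, Ndufa2, Ndufa3, Ndufa7, Ndufa13, Ndufb5, Ndufb9, Ndufb11, Ndufv1, Ndufv3 and Ndufaf8. On single arrays, 3 to 9 of the 44 genes exceeded background in oxi exo and 14 to 21 in norm exo, so the 2 exosome groups did not overlap in this count. Of all probe sets, 6.88% to 10.3% exceeded background on the oxi exo arrays and 10.3% to 12.1% on the norm exo arrays, a shift in the same direction.

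**Figure D1:**
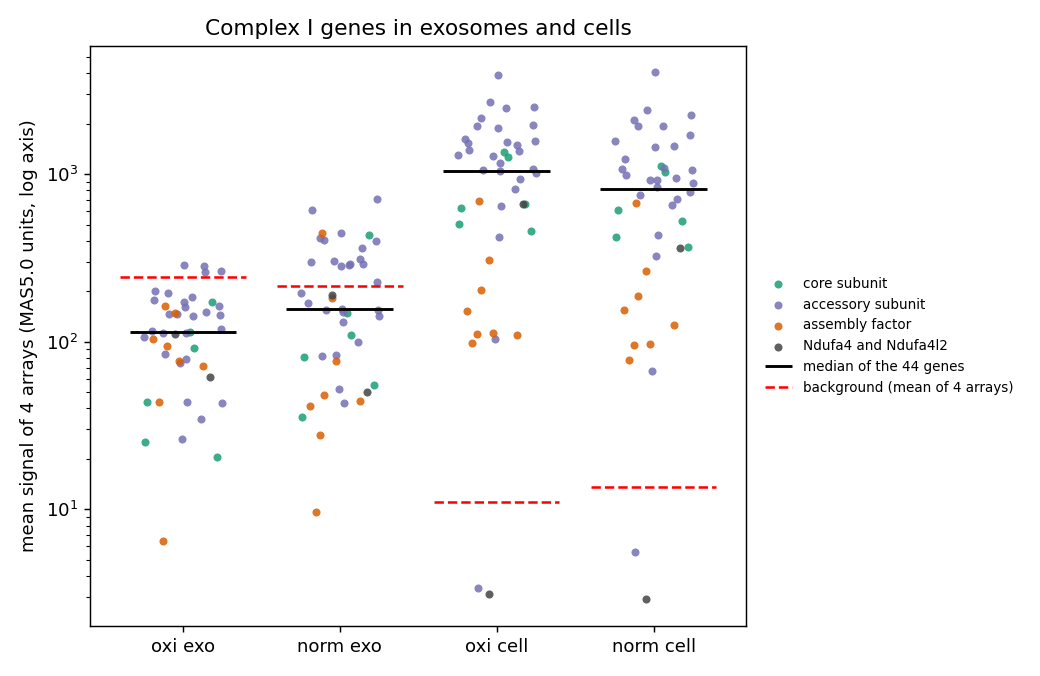
Mean signal over 4 arrays (MAS5.0 units, log axis) of each of the 44 genes in oxi exo, norm exo, oxi cell and norm cell, with colours for the roles, black bars for the median of the genes and dashed red lines for the mean background. The median of the genes lies below the background line in oxi exo (113.7 against 242.5) and norm exo (156.3 against 214.2), and far above it in oxi cell (1048 against 11.03) and norm cell (810.9 against 13.49).

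The place of the members within each array is not changed by a linear scaling of the array. The median member stood at the 53.2 to 63.7 percentile of all probe sets on the oxi exo arrays, 80.1 to 82.2 on the norm exo arrays, 96.6 to 96.8 on the oxi cell arrays and 95.6 to 96.1 on the norm cell arrays. The ranges of the groups did not overlap. The median coefficient of variation of a member was 50.9% in oxi exo, 35.2% in norm exo, and, over the 42 genes above background, 5.98% in oxi cell and 3.91% in norm cell. The exosome values take in genes below background. Over the 11 genes above background in norm exo it was 18.0% in norm exo, 8.73% in oxi cell and 3.12% in norm cell.

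The first question was how complex I mRNA of the cells differed under oxidative stress. Most of the member subunits were higher in oxi cell, by small amounts, while none of the 8 assembly factors among the members passed the test. At a Benjamini-Hochberg adjusted p of 0.05 over all probe sets (limma), 26 of the 44 genes were higher in oxi cell (59.1%) and 1 was lower (2.27%), against 4.31% of all probe sets higher and 5.51% lower. Among the 21376 probe sets above background in either cell group, 9.03% were higher and 11.3% lower. The median log2 difference of the 44 genes was 0.30, against -0.15 for all probe sets. Of the 44 genes, 28 were higher on every oxi cell array than on any norm cell array, and 2 were lower on every one (6.38% and 9.72% of all probe sets). In bulk RNA, fewer cells of a type and less RNA per cell cannot be told apart. By the paper, the H2O2 dose was chosen to give a moderate degree of cell death. The part of cell death in these differences was not tested. When arrays were scaled to the spiked hybridization controls in place of the trimmed mean, 38 of the 44 genes were higher and none lower, while the test called 6443 higher and 430 lower among all 45037, against 1941 and 2483 in the deposited scale. That scaling put the median of all probe sets at 0.15, and quantile normalization put it at 0.00. The median of the 44 genes stood 0.45 above that of all probe sets in the deposited scale, 0.45 above it with the spiked controls and 0.27 above it with quantile normalization.

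Ndufa4, first described as a complex I subunit and since placed in complex IV, had the largest rise of the 44 genes. Its signals were 679, 706, 594 and 680.4 in oxi cell, against 399, 346, 332 and 374 in norm cell. The lowest oxi cell array was well above the highest norm cell array, and the log2 difference was 0.87 ± 0.06 (SE, n = 4 each, adjusted p = 3.89e-05). Its paralogue Ndufa4l2 was at 1.96 to 4.47 in oxi cell and 1.36 to 4.92 in norm cell, below background in both.

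All 3 core subunits of the N module were higher in oxi cell. Ndufv1, which binds NADH and the flavin, had signals of 682, 650.2, 667 and 668 in oxi cell, against 501, 558, 531 and 525 in norm cell. The groups were apart, and the log2 difference was 0.34 ± 0.06 (adjusted p = 0.00461). Ndufs1, the largest core subunit and holder of several iron-sulfur clusters, differed by 0.32 ± 0.06 (means of 461 and 369 in oxi cell and norm cell, adjusted p = 0.00915). For Ndufv2, which holds a further cluster of the N module, the difference was 0.28 ± 0.05 (means of 1356 and 1120, adjusted p = 0.00679). On the linear scale these 3 differences were 1.21-fold (Ndufv2) to 1.26-fold (Ndufv1).

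In the Q module, Ndufs8 (0.29 ± 0.05, adjusted p = 0.00523) and Ndufs3 (0.26 ± 0.06, adjusted p = 0.0148) were higher in oxi cell. Ndufs7, which carries the last iron-sulfur cluster before ubiquinone, averaged 626 ± 33.4 in oxi cell and 611 ± 29.9 in norm cell (SD, n = 4 each), with overlapping groups and a log2 difference of 0.03 ± 0.06 (adjusted p = 0.789). The calls of Ndufs1, Ndufs3 and Ndufv2 were each lost without number 4, among other fits, and over all 10 alternative limma fits the adjusted p reached 0.0595 for Ndufs1, 0.0633 for Ndufs3 and 0.054 for Ndufv2.

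Accessory subunits made up the bulk of the change, with 20 of 28 higher and 1 lower. Of the subunits of the distal end of the membrane arm, 9 of 11 were higher. Ndufb8 had signals of 1553, 1599, 1642 and 1688 in oxi cell, against 1085, 1020, 1089 and 1081 in norm cell. The gap between the groups was several times the spread within either, and the log2 difference was 0.60 ± 0.05 (adjusted p = 9.78e-05). Ndufb6 gave 1534, 1471, 1556 and 1785 in oxi cell, against 1048, 1096, 946 and 1163 in norm cell (0.58 ± 0.06, adjusted p = 0.000237). These groups were again apart. Ndufb1, a short subunit of the same arm, had 92.6, 109, 93.1 and 118 in oxi cell, against 57.0, 71.8, 57.7 and 79.6 in norm cell (0.64 ± 0.10, adjusted p = 0.00268). In each group the arrays of numbers 2 and 4 were the higher ones for Ndufb1. The remaining called genes of this arm were Ndufb9 (0.50), Ndufb5 (0.48), Ndufb7 (0.36), Ndufb3 (0.34), Ndufb2 (0.32) and Ndufb10 (0.20), with SEs of 0.05 or 0.06. Ndufb10 was the weakest of them (adjusted p = 0.0319) and lost its call in all 4 fits without 1 replicate number. Ndufb11 missed the threshold (0.16 ± 0.06, adjusted p = 0.109), although its other 2 probe sets passed it at 0.24 each.

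At the proximal end of the membrane arm 7 of 9 genes were higher. Ndufc1 led with 1251, 1346, 1457 and 1462 in oxi cell, against 985, 906, 972 and 922 in norm cell (0.54 ± 0.06, adjusted p = 0.000417). Ndufa9, which sits at the joint of the arms, had 1085, 1000, 1040 and 1089 in oxi cell, against 766, 759, 715 and 754 in norm cell (0.49 ± 0.05, adjusted p = 0.000352). Both genes were apart on every array. Ndufs5 (0.48), Ndufa10 (0.46), Ndufc2 (0.35), Ndufa8 (0.32) and Ndufa13 (0.21) completed the 7. Ndufa13, also known as a cell death regulator, was close to the threshold (adjusted p = 0.043). Ndufa1, a small subunit encoded on the X chromosome, did not pass, with 3544, 3735, 4347 and 3977 in oxi cell, against 4057, 3995, 4001 and 4171 in norm cell (-0.06 ± 0.06, adjusted p = 0.612). Ndufa3 was above on every array but also missed the threshold (0.16 ± 0.05, adjusted p = 0.0703).

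The accessory subunits of the N module were mixed. Ndufs4, whose loss causes Leigh-like disease in mice, was higher in oxi cell (410.3, 389, 452 and 447, against 312, 334, 329 and 329 in norm cell; 0.38 ± 0.07, adjusted p = 0.00418). Ndufa12 was higher as well (0.32 ± 0.05, adjusted p = 0.00302). Ndufa2 (0.15 ± 0.07), Ndufa7 (0.03 ± 0.06) and Ndufv3 (-0.12 ± 0.06) did not pass, with adjusted p of 0.231, 0.856 and 0.256. Ndufa6 was the only member called lower, at 1241, 1399, 1384 and 1182 in oxi cell, against 1683, 1498, 1630 and 1484 in norm cell. All 4 oxi cell arrays were below all norm cell arrays, and the log2 difference was -0.28 ± 0.06 (adjusted p = 0.0157). This fall depended on the scaling between arrays, since it came to 0.02 (adjusted p = 0.904) when arrays were scaled to the spiked hybridization controls, and the call was also lost without number 1 and without number 4.

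Ndufa5, the accessory subunit of the Q module, was among the larger rises at 639, 603, 654 and 703 in oxi cell, against 442, 417, 438 and 448 in norm cell (0.57 ± 0.06, adjusted p = 0.000214). Its second probe set gave 0.65 (adjusted p = 0.0035). Ndufab1, the mitochondrial acyl carrier protein, which also serves fatty acid synthesis, averaged 932 ± 32.9 in oxi cell and 714 ± 55.1 in norm cell (SD, n = 4 each). Its groups did not overlap (0.39 ± 0.06, adjusted p = 0.00247).

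None of the 8 assembly factors passed the test in the cells (limma), and 2 were higher at an unadjusted p of 0.05 (8.15% of all probe sets). Ndufaf5, a hydroxylase of Ndufs7, was nearest, with 104, 99.3, 90.4 and 97.2 in oxi cell, against 82.1, 78.6, 88.7 and 59.9 in norm cell (0.35 ± 0.12, adjusted p = 0.105). Ndufaf8, its partner protein, averaged 689 ± 62.8 in oxi cell and 673 ± 37.2 in norm cell (0.03 ± 0.06, adjusted p = 0.848). Of Ndufaf1, Ndufaf2, Ndufaf3, Ndufaf4, Ndufaf6 and Ndufaf7, the log2 differences ran from -0.22 for Ndufaf7 to 0.22 for Ndufaf2, with SEs of 0.08 to 0.12. These SEs were larger than the 0.05 or 0.06 of most subunits.

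**Figure D2:**
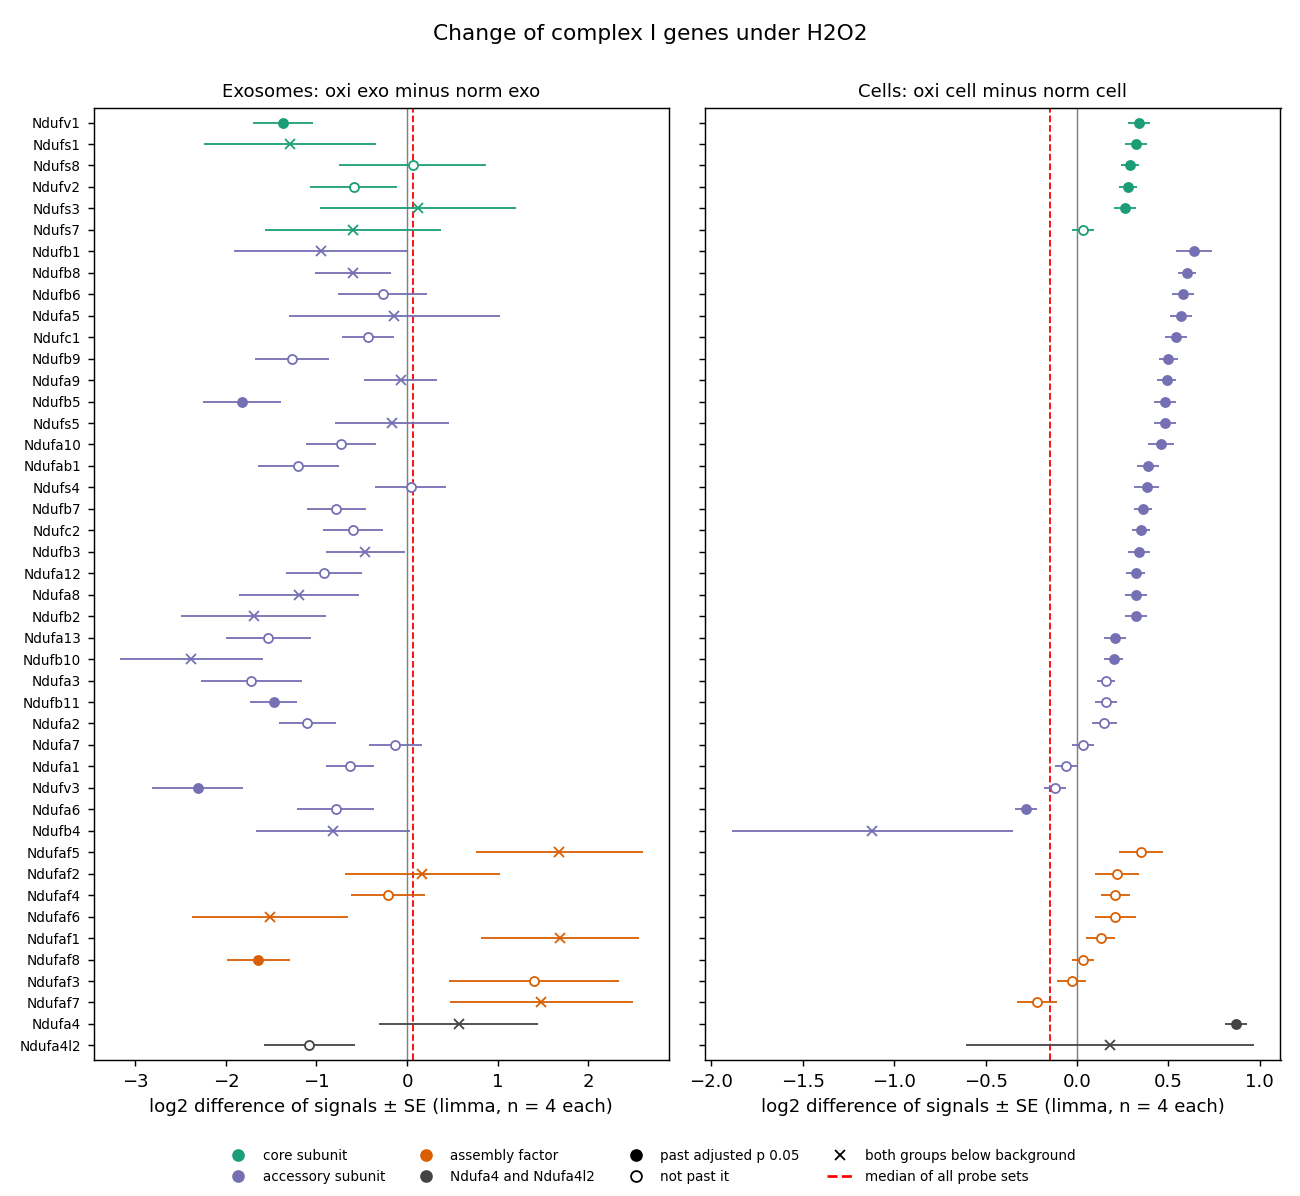
Log2 difference ± SE (limma, n = 4 each) of each of the 44 genes for oxi exo minus norm exo (left) and oxi cell minus norm cell (right, on a narrower axis), ordered by role and by the change in cells. Filled points passed an adjusted p of 0.05, crosses mark genes below background on all arrays of both groups, and dashed red lines give the median of all probe sets (0.06 and -0.15). In the cells 26 filled points lie to the right of 0 and 1 to the left, and in the exosomes 5 lie to the left and none to the right.

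The other probe sets of the members mostly moved with those that stood for their genes. Of all 88 member probe sets, 49 were higher in oxi cell and 2 lower, with a median log2 difference of 0.30. Besides Ndufa6, the lower one was a probe set of Ndufb2 with means of 11.2 in oxi cell and 28.8 in norm cell (-1.46, adjusted p = 0.0322), close to background, whereas the other 2 probe sets of Ndufb2 were higher by 0.31 and 0.32. Across the alternative limma fits, 20 of the 27 calls of genes held in all 10, and Ndufa6, Ndufa8, Ndufa13, Ndufb10, Ndufs1, Ndufs3 and Ndufv2 were lost in at least 1.

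**Figure D3:**
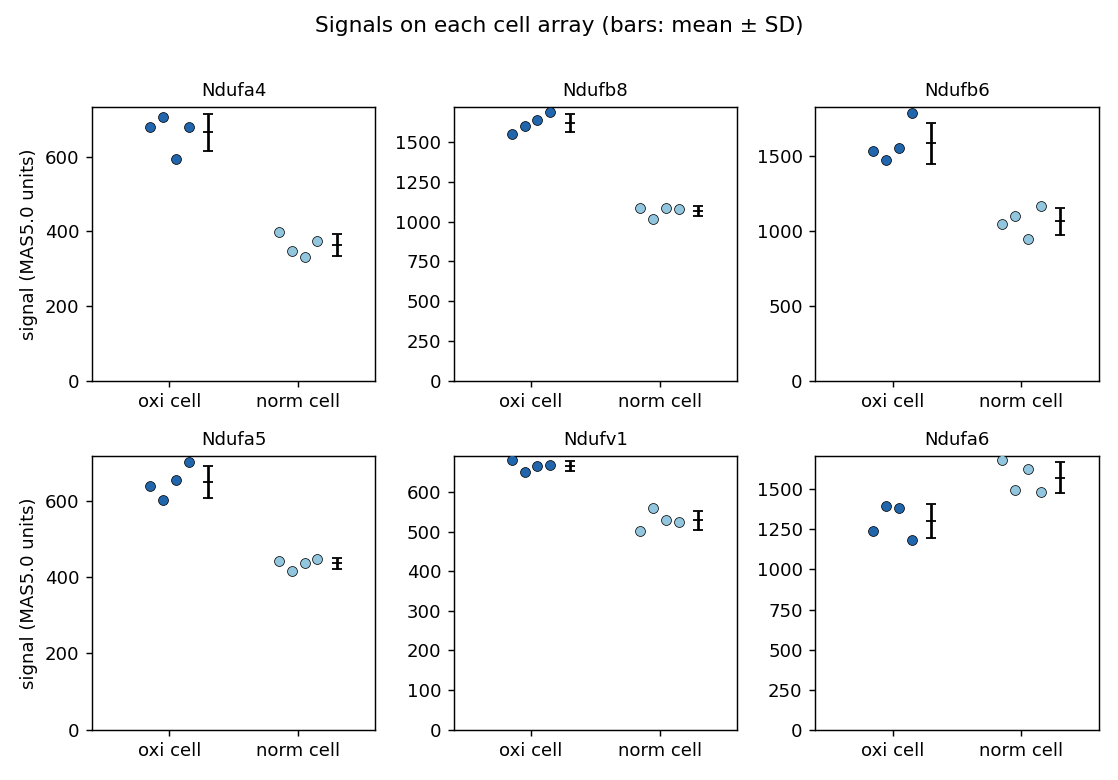
Signal (MAS5.0 units, from 0) on each of the 4 oxi cell and 4 norm cell arrays for Ndufa4, Ndufb8, Ndufb6, Ndufa5, Ndufv1 and Ndufa6, with the mean ± SD beside the points. All oxi cell points lie above all norm cell points in the first 5 genes, and below them in Ndufa6.

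Genes of the other respiratory complexes were taken from a list for each complex, and these lists were chosen with earlier results of these data known. Their shares of higher genes in the cells were 53.3% (complex III), 52.9% (complex V), 25.0% (complex IV) and 25.0% (complex II), against 59.1% of the 44 genes. The sets are unlike, since these lists hold assembly factors under any symbol, whereas complex I genes with other symbols are counted apart from the 44. In oxi cell 8 of 15 genes of complex III were higher and 1 was lower, 9 of 17 of complex V (ATP synthase) were higher and none lower, 7 of 28 of complex IV were higher and none lower, and 2 of 8 of complex II were higher and 1 lower. The median log2 difference was 0.30 for complex III, 0.19 for complex V, 0.07 for complex IV and -0.00 for complex II. Atp5g1, which encodes a c subunit of the ATP synthase rotor, had the largest rise among the genes that passed (884 and 553 in oxi cell and norm cell, 0.68 ± 0.06, adjusted p = 8.59e-05), followed by Uqcrq of complex III (437 and 286, 0.62 ± 0.07, adjusted p = 0.000465). Of 15 complex I genes with other symbols, most of them assembly factors, 2 were higher (Aifm1 by 0.38 and Dmac1 by 0.34) and none lower, with a median of 0.01. These counts describe the lists, and the differences between the lists were not tested.

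The second comparison asked how the exosomal RNA differed. The difference was negative for 35 of the 44 genes, those below background included, and few passed the test. Of the 44 genes, 5 were lower in oxi exo (11.4%) and none higher, against 1.70% and 0.0311% of all probe sets (limma, adjusted p of 0.05). At an unadjusted p of 0.05, 15 genes were lower and none was higher (5.83% and 3.92% of all probe sets). The median log2 difference was -0.68 for the 44 genes, 0.06 for all probe sets and -0.47 for the 2722 probe sets above background in either exosome group. Of the 44 genes, 19 were below background on all 8 exosome arrays and have no fold change here. With signals set to background where they fell below it, the median of the 25 genes that remained was -0.21, against 0.14 for all probe sets that remained. Of the 44 genes, 8 were lower on every oxi exo array than on any norm exo array (4.09% of all probe sets), and none was higher on every one (2.48%). Over all probe sets the test gave 14 higher and 764 lower, and under quantile normalization 115 higher and 276 lower, with 1 of the 44 genes lower.

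Ndufb11, a subunit of the distal membrane arm, was the firmest of the 5. Its signals were 323, 271, 306 and 159.6 in oxi exo, against 763, 803, 609 and 669 in norm exo. The groups were far apart, 3 of the oxi exo arrays and all norm exo arrays were above background, and the log2 difference was -1.47 ± 0.26 (adjusted p = 0.0042). It was the 1 gene whose call held in all 10 alternative limma fits. A second probe set gave -1.42 (adjusted p = 0.00745), and another, with means of 69.7 in oxi exo and 166.6 in norm exo, did not pass (adjusted p = 0.472).

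Ndufb5 had 73.0, 296, 344 and 93.1 in oxi exo, against 848, 742, 326 and 518 in norm exo (-1.82 ± 0.43, adjusted p = 0.041). Of its oxi exo arrays only 2 were above background. The lowest norm exo array lay below the highest oxi exo array. The other probe set of Ndufb5, below background on all oxi exo arrays, passed on the deposited signals (limma, adjusted p = 0.00231), and its groups did not overlap. With its oxi exo signals raised to background, it was down by a factor of at least 1.63. Ndufv1, the NADH-binding core subunit, had 106, 259, 168 and 153 in oxi exo, against 506, 479, 267 and 488 in norm exo (-1.37 ± 0.33, adjusted p = 0.045). Only 1 of its oxi exo arrays was above background. The lowest norm exo array was just above the highest oxi exo array. A second probe set of Ndufv1, below background on all oxi exo arrays, passed as well on the deposited signals (adjusted p = 0.0328). With dim signals raised to background its fall was at least 1.41-fold. The third probe set did not pass (-1.20, adjusted p = 0.182).

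Ndufaf8 had 290.1, 96.5, 196 and 71.6 in oxi exo, only 1 of them above background, against 527, 386, 395 and 466 in norm exo (-1.64 ± 0.35, adjusted p = 0.019). Ndufv3, an accessory subunit of the N module, had 211, 18.7, 137 and 84.6 in oxi exo, all below background, against 426, 464, 288 and 486 in norm exo. On these signals it passed (limma, adjusted p = 0.0223), and setting the oxi exo signals to the background gives a fall of at least 1.69-fold. Neither gene had overlapping groups. For Ndufb5, Ndufv1 and Ndufaf8 the size of the log2 difference rests in part on oxi exo signals below background. The calls of Ndufb5, Ndufv1, Ndufv3 and Ndufaf8 were each lost when replicate number 2 was left out, when number 4 was left out and under quantile normalization. The count of lower genes was 1 without number 2, 1 without number 4 and 3 without number 1.

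**Figure D4:**
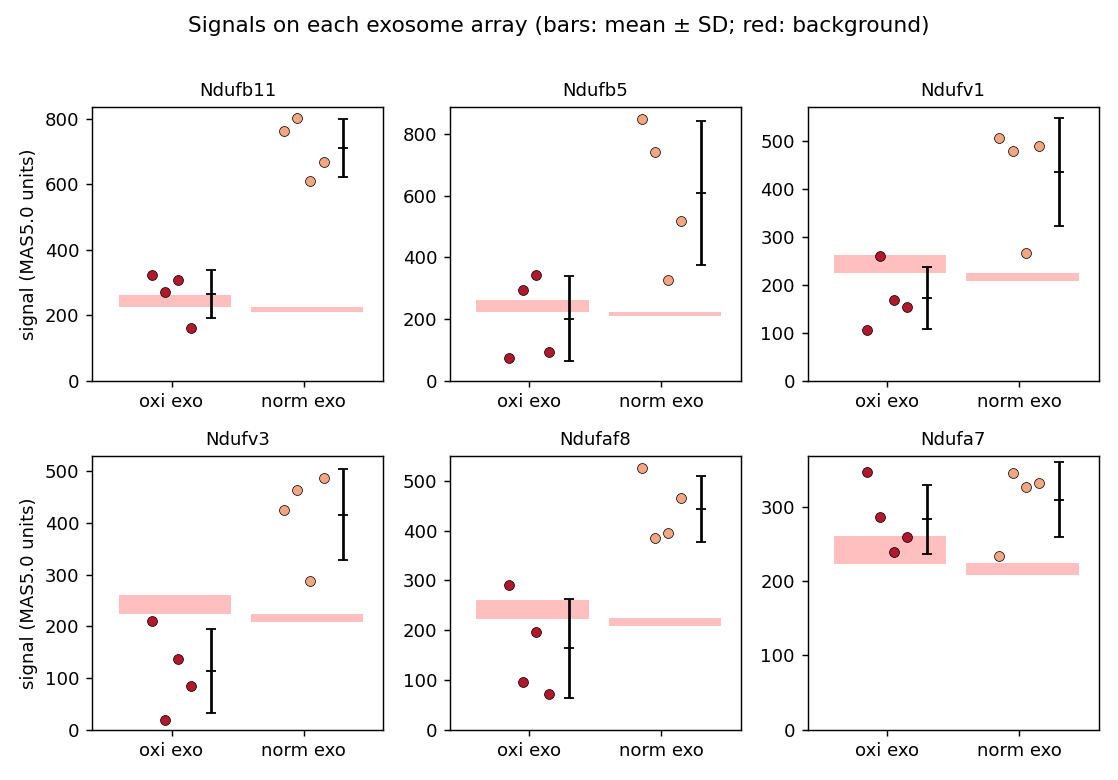
Signal (MAS5.0 units, from 0) on each of the 4 oxi exo and 4 norm exo arrays for the 5 genes called lower in oxi exo and for Ndufa7, with the mean ± SD beside the points and the range of the array backgrounds in red (223.5 to 261 in oxi exo, 208.4 to 224.1 in norm exo). The oxi exo points of Ndufb11, Ndufv1, Ndufv3 and Ndufaf8 lie below all norm exo points, those of Ndufb5 reach into them, and those of Ndufa7 share their range.

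Not every measurable member was lower. Ndufa7, an accessory subunit of the N module, had 347, 287, 239 and 259.5 in oxi exo, against 234, 345, 327 and 332 in norm exo, with overlapping groups (-0.13 ± 0.29, adjusted p = 0.933). Ndufa1 had 275, 369.7, 306 and 195 in oxi exo, against 422, 644, 349 and 368 in norm exo (-0.63 ± 0.27, adjusted p = 0.436). Its groups overlapped as well, through 1 oxi exo array. Ndufa2 had 199.9, 202, 267 and 115 in oxi exo, against 453, 481, 322 and 372 in norm exo, with no overlap, but missed the threshold (-1.10 ± 0.31, adjusted p = 0.118). Ndufa3 was likewise apart and missed it (adjusted p = 0.212), although a second probe set of Ndufa3 passed on the deposited signals (adjusted p = 0.00773). That probe set had means of 67.2 in oxi exo and 325 in norm exo, a fall of at least 1.29-fold with dim signals raised to background. A second probe set of Ndufs7 also passed (adjusted p = 0.0242), but was below background on all 8 arrays.

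Among the assembly factors, 5 of 8 were below background on every exosome array, and of the others only Ndufaf8 passed. Of the other complexes, 7 of 17 genes of complex V, 5 of 28 of complex IV, 3 of 15 of complex III and none of 8 of complex II were lower in oxi exo, and none of these 68 genes was higher. Their medians were -1.10, -0.54, -0.52 and -0.55. Atp5a1, the alpha subunit of ATP synthase, averaged 1682 in oxi exo and 4791 in norm exo (-1.57 ± 0.21, adjusted p = 0.000484), and Cox7a2l, a complex IV related protein of respiratory supercomplexes, averaged 356 and 1179 (-1.73 ± 0.23, adjusted p = 0.000527). No test was made between the lists.

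Exosomes were then set against cells within each condition. Each array was scaled to the same trimmed mean, whatever the number of transcripts it detected. The background was 22.0 times higher in oxi exo than in oxi cell and 15.9 times higher in norm exo than in norm cell, and the spiked controls 20.8 and 17.3 times. The median log2 difference of all probe sets was 2.67 for oxi exo against oxi cell and 2.23 for norm exo against norm cell. Most probe sets were below background on the exosome arrays. These medians therefore give no level of RNA against which to read the members. Of all 45037, the test called 27373 higher and 8740 lower for oxi exo against oxi cell. These counts were 1780 and 22455 with the spiked controls and 9318 and 10682 with quantile normalization. For norm exo against norm cell they were 25977 and 8538 in the deposited scale, 1232 and 23105 with the spiked controls, and 8352 and 9974 with quantile normalization.

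Complex I signals were lower in exosomes in both conditions and under each of these scalings, with 41 or 42 of the 44 genes lower in oxi exo and 34 or 42 lower in norm exo under the other scalings. In oxi exo against oxi cell 39 of the 44 genes were lower and 2 higher (19.4% and 60.8% of all probe sets), with a median of -3.54. In norm exo against norm cell 38 were lower and 2 higher (19.0% and 57.7%), with a median of -2.53. With signals set to background where they fell below it, the medians were -2.14 and -1.66. In oxi exo 28 genes, and in norm exo 21, were below background on all 4 exosome arrays. For 20 and 13 of these the mean log2 cell signal exceeded the exosome background, so that only bounds can be given. For the rest not even a bound can be given. The bounds ran from 1.27-fold (Ndufaf4) to 10.2-fold (Ndufc2) in the H2O2 condition and from 1.69-fold (Ndufa4) to 5.23-fold (Ndufv2) in the normal condition. Of the 68 genes of complexes II to V, 52 were lower and 4 higher in oxi exo against oxi cell (median -2.8). In norm exo against norm cell 47 of these were lower and 7 higher (median -1.9). Complex I was not tested against these lists.

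Ndufa1 averaged 286 ± 72.6 in oxi exo and 3901 ± 346 in oxi cell (-3.80 ± 0.24, adjusted p = 1.08e-05), and 446 ± 136 in norm exo and 4056 ± 81.5 in norm cell (-3.23 ± 0.19, adjusted p = 2.55e-06). Ndufc2, of the proximal membrane arm, fell by at least 10.2-fold in oxi exo against oxi cell (184 and 2482). In the normal condition it averaged 285 in norm exo and 1946 in norm cell (-2.84 ± 0.23, adjusted p = 1.12e-05). For Ndufb8 the fall was at least 6.69-fold in oxi exo against oxi cell (116 and 1620) and at least 4.99-fold in norm exo against norm cell (169 and 1069). These genes all had every exosome array below every cell array.

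A few genes were nearer to their cell level in norm exo. Ndufv1 had 506, 479, 267 and 488 in norm exo, against 501, 558, 531 and 525 in norm cell, with overlapping groups (-0.33 ± 0.23, adjusted p = 0.217), and was lower in oxi exo than in oxi cell (172 and 667, -2.03 ± 0.29, adjusted p = 0.000234). Ndufaf8 averaged 443 in norm exo and 673 in norm cell (-0.61 ± 0.19, adjusted p = 0.0149), and Ndufb5 609 and 992 (-0.80 ± 0.24, adjusted p = 0.0128). Under quantile normalization these 3 genes turned to the other sign in the normal condition, at 0.77 for Ndufv1, 0.62 for Ndufaf8 and 0.52 for Ndufb5, so their direction between norm exo and norm cell depends on the scaling. Ndufab1 averaged 293 in norm exo and 714 in norm cell (-1.33 ± 0.22, adjusted p = 0.000495), and 151 in oxi exo and 932 in oxi cell (-2.92 ± 0.39, adjusted p = 0.000163). In oxi exo, Ndufv1 and Ndufab1 were each above background on only 1 array.

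The 2 genes called higher in exosomes were the same in both conditions and were those below background in the cells. Ndufa4l2 had 71.4, 229, 285 and 179 in norm exo, 2 of them above background, against 1.36, 4.92, 2.30 and 3.03 in norm cell. The limma fit on these signals gave an adjusted p of 4.84e-05. With norm cell signals raised to background, the ratio came to 12.7 in the deposited scale. It is no lower bound for the transcript, since norm exo signals below background entered it. This ratio is smaller than the 15.9-fold difference in background and the 17.3-fold difference in spiked controls between these groups. In oxi exo it had 19.1, 219, 75.3 and 133, none above background. Ndufb4 was below background on all 16 arrays, and no fold change is given for it.

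The last comparison set the change under H2O2 in exosomes against that in cells, through the 8 differences within a replicate number. By sign, the change was negative in exosomes for 35 of the 44 genes and positive in cells for 38. Of the 44 genes, 2 had a lower change in exosomes than in cells at an adjusted p of 0.05 and none a higher one (limma), against 1.47% and 0.0933% of all probe sets. At an unadjusted p of 0.05 the counts were 23 and 1 (6.55% and 6.67% of all probe sets). The difference of the changes was -1.63 ± 0.26 for Ndufb11 (adjusted p = 0.0118) and -1.71 ± 0.36 for Ndufv1 (adjusted p = 0.0415). Ndufb2 came just outside the threshold (adjusted p = 0.0501), but was below background on all exosome arrays, so no value is given. The median over the 44 genes was -0.96, against 0.25 for all probe sets. Neither call held under quantile normalization or without number 1, 2 or 4, where the number of genes past the threshold was 0. Both calls held in the fits with no block (5 genes past the threshold), with the spiked controls (8), with only probe sets above the median (6), with log2(signal + 100) (10) and with a floor at background (24), and 1 of them held without number 3 (3). With the floor, the test called 12813 higher and 1721 lower among the 29808 probe sets that remained, so that its count of 24 does not set the members apart.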

How the data were processed

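The study hybridized RNA of 16 samples, 4 each of oxi exo, norm exo, oxi cell and norm cell, to Affymetrix mouse arrays. The authors deposited MAS5.0 signal intensities, linear in scale and made with GCOS 1.2 per the labels, with each array scaled to a trimmed mean of 100 (2% cut at either end). The paper's methods name the 430A 2.0 array, while the file holds 45101 probe sets. Without 64 controls, 45037 were tested, of which the platform annotation gave 34945 a single gene symbol, 932 several and 9160 none. Arrays have no read depth, and their number limits the precision.

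The test was limma 3.58.1 (R 4.3.3) on log2 signal: lmFit with a block for the replicate number, because the methods name a paired test, then eBayes with a mean trend. Adjusted p are Benjamini-Hochberg values over the 45037 probe sets, called under 0.05. Only the 8 arrays of a comparison entered its fit, and the change in exosomes was set against that in cells through differences within a number. That last fit used a common variance for both sets of differences, although exosome signals spread more than cell signals. Background was each array's 95th percentile of 184 probe sets of 152 tissue-restricted genes. For a group below it on all 4 arrays, a fold change is a bound, from mean log2 values with dim signals raised to background. The adjusted p printed with a bound comes from the fit on deposited signals, without that floor. The ratio of Ndufa4l2 in norm exo against norm cell is not such a bound, since part of its norm exo signals were below background.

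Members, lists, tests and the naming rule were chosen with earlier results of these data known. The rule named the core subunits, Ndufab1, Ndufa4 and Ndufa4l2, the 5 largest rises and 5 largest falls among genes that passed in each comparison and were above background in at least 1 group, the 5 strongest signals in norm exo and the 5 in norm cell, and genes that passed in the comparison of changes. Further members are given to account for each role and were chosen after their values were seen. The limma code was tested on simulated signals with known changes. Promoters are RefSeq's (GRCm38.p6). Python 3.11.15, numpy 2.4.6, pandas 2.3.3 and matplotlib 3.10.9 made the tables and figures. The alternatives were no block, quantile normalization, scaling to 9 spiked control probe sets, only probe sets above the median, log2(signal + 100), a floor at background, a paired test as the methods describe, another choice of probe set, and leaving out each replicate number.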

Additional observations from a re-analysis of the deposited data

Results flagged for a closer look

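Among 96 sets of 4 arrays examined, 11 had 1 array far from the other 3, and chance alone gives about 1 in 20. In oxi exo these were Ndufa4 (19.83, others 70.47 to 79.14) and Ndufs3 (65.16, others 9.533 to 13.59). In norm exo they were Ndufs3 (115.9, others 7.085 to 12.09), Ndufs7 (216.5, others 26.44 to 49.58) and Ndufv1 (266.7, others 479.1 to 505.8). In oxi cell they were Ndufb5 (1581, others 1292 to 1336), Ndufs1 (425.9, others 470.8 to 474.7) and Ndufv2 (1311, others 1367 to 1376). In norm cell they were Ndufb2 (687.7, others 635.8 to 642.3), Ndufb8 (1020, others 1081 to 1089) and Ndufs3 (400.5, others 429.9 to 431.1). Of these genes, Ndufv1 was called lower in oxi exo than in norm exo, and its far array is the norm exo array nearest to the oxi exo values.

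In the main limma fit, the change under H2O2 differed between exosomes and cells, by a test of the difference itself, for Ndufb11 (-1.63, adjusted p = 0.0118) and Ndufv1 (-1.71, adjusted p = 0.0415), both lower in exosomes. Neither call held under quantile normalization or without replicate number 1, 2 or 4.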

How the results depend on the processing

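Of the calls made, 20 of 27 in oxi cell against norm cell, 1 of 5 in oxi exo against norm exo, 37 of 41 in oxi exo against oxi cell, 32 of 40 in norm exo against norm cell and 0 of 2 in the comparison of changes held in all 10 other limma fits. In the cells the count of higher genes (26) was 20 to 26 with a replicate left out and 0 by the methods' paired test after adjustment, on linear or log2 signals. The count of lower genes there (1) was 0 to 1 with a replicate left out, 0 with the spiked controls, 0 with a floor at background, and by the methods' paired test 2 unadjusted on linear signals and 0 adjusted on either scale. In oxi exo against norm exo the count of lower genes (5) was 1 to 6 with a replicate left out, 1 under quantile normalization, 3 with the spiked controls and 2 with the floor. The methods' paired test gave 9 (linear) and 8 (log2) unadjusted there, and 0 adjusted on either scale. On log2 signals the adjusted paired test called 0 higher and 0 lower among all 45037 probe sets, in these exosomes as in the cells. Its 0 therefore does not set the 44 genes apart. The count of genes higher in oxi exo than in oxi cell (2) was 0 under quantile normalization, with the spiked controls, with only probe sets above the median and by the methods' paired test on linear signals, unadjusted or adjusted, and 7 with the floor. For norm exo against norm cell (2) it was 1 with the spiked controls, 0 with only probe sets above the median, 7 with the floor and 1 by the methods' adjusted test on linear signals. In the comparison of changes the count of lower genes (2) was 0 to 3 with a replicate left out, 0 under quantile normalization, 5 with the probe set of highest linear mean, 8 with the spiked controls, 6 with only probe sets above the median, 10 with log2(signal + 100) and 21 with the floor, which also gave 3 higher genes (0). In the comparison of changes, the floor gave 12813 higher and 1721 lower among 29808 probe sets, against 42 and 662 among 45037 in the main fit. The cause of these shifts was not tested.

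Equal replicate numbers were not shown to pair the samples, since the deviations of same-numbered arrays correlated between -0.016 and 0.022. Without the replicate block, the comparison of changes gave 5 lower genes in place of 2, and no other count moved by over 1.5 times.

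The sign turned for Ndufa1 (0.24) and Ndufa6 (0.02) in the cells with the spiked controls, and for Ndufv1 (0.77), Ndufaf8 (0.62) and Ndufb5 (0.52) in norm exo against norm cell under quantile normalization. With the floor it turned for Ndufb1 in norm exo against norm cell (1.70) and in oxi exo against oxi cell (1.24), and for Ndufa4l2 in the comparison of changes (0.34). Signal over background limits the exosome values, where 19 of the 44 genes were below background on all arrays.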

Other observations

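In complex II, whose genes took no common direction in the cells, Sdhb, the iron-sulfur subunit, was higher in oxi cell (means of 1758 in oxi cell and 1306 in norm cell, log2 difference 0.43 ± 0.05, limma adjusted p = 0.000639), and Sdhc, a membrane anchor, was lower (215.1 and 262, -0.29 ± 0.08, adjusted p = 0.0482). In complex III the 1 gene called lower was Ttc19, an assembly factor (72.2 and 97.6, -0.44 ± 0.12, adjusted p = 0.0368). These genes were chosen after their values were seen.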
